A study of Mus musculus with 6 samples.

Results

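Malat1 and Neat1 are neighbouring genes on mouse chromosome 19 that make long noncoding RNAs kept in the nucleus, and they were taken by symbol and matched to Ensembl identifiers in a matrix of raw gene counts. They are 2 of the 21666 genes of that matrix and 2 of the 15518 that passed the filter on low counts, so both members were measured. The counts come from 6 RNA-seq libraries made from total RNA of mouse satellite cells (muscle stem cells) after 2 days of differentiation. There were 3 libraries from wild-type (WT) mice and 3 from lncMREF knockout (KO) mice, the latter lacking a long noncoding RNA that the series title ties to myogenic differentiation and to Smarca5 and p300. The labels give no strain, sex, age or knockout allele, and do not say whether replicates came from separate animals, so every p-value below rests on library-to-library spread that may be technical. Both genes were chosen by their known place in the nucleus and on the chromosome and selected on their KO and WT counts in these libraries, so that difference is described here and not tested.

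Malat1 RNA gathers in nuclear speckles, the nuclear bodies that store splicing factors, and Neat1 RNA is the scaffold of paraspeckles, bodies that hold RNA-binding proteins such as Nono and Sfpq. Neither full-length RNA ends in an ordinary poly(A) tail. RNase P cuts each transcript at a tRNA-like structure, and the new 3′ end folds into a triple helix of U-rich and A-rich stretches that shields the RNA from decay. Neat1 also has a short form that ends at a poly(A) signal, and only the long form builds paraspeckles. Malat1 has been linked with control of Myod1 target genes in myoblasts, and Neat1 with Ezh2 at the Cdkn1a gene.

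Both genes lie on the minus strand in the mm10 build. Malat1 (ENSMUSG00000092341) runs from 5795690 to 5802672 and Neat1 (ENSMUSG00000092274) from 5824708 to 5845478, with 22035 bases between them. GENCODE M21 gives each gene 4 transcripts. The longest one of each is a single exon that fills the whole gene, 6983 bases for Malat1 and 20771 for Neat1, and neither has a coding region or UTR. The opening stretch of a short Neat1 transcript of 3004 bases matches the long one from base 3 of the long one. The remaining bases of the short transcript were not compared. Both are counted under the same gene, so gene counts cannot separate short from long Neat1. Another annotated gene overlaps 7.72% of the exonic bases of Malat1 and 1.85% of those of Neat1, and none of these 5 overlapping genes is in the matrix. The 3′ ends are shown because the protected end is what both RNAs share. The last 110 bases before the end of the A-rich tract are given 5′ to 3′ from the GENCODE M21 transcripts, for Malat1 the minus strand of chr19:5795982-5796091 and for Neat1 that of chr19:5824708-5824817, with capitals for exact runs of at least 9 bases found in both.
Malat1: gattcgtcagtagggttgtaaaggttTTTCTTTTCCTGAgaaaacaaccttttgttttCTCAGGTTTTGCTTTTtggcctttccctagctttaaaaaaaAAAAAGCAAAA
Neat1: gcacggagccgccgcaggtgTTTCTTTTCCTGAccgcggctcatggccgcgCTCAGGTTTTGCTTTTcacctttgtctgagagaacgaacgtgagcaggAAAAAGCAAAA
The 3 shared runs are 13, 16 and 11 bases long, in this order in both RNAs. The first 2 hold U-rich stretches and the last is the A-rich end itself.

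The tRNA-like stretches that follow are compared next, since they mark the place of the cut. After the Malat1 tract come the 57 bases at chr19:5795925-5795981, and directly after Neat1 lies the annotated small RNA gene Gm27702 of 56 bases at chr19:5824652-5824707, both on the minus strand. Capitals mark runs of at least 7 bases found in both.
after Malat1: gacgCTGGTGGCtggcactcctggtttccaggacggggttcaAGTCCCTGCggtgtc
Gm27702: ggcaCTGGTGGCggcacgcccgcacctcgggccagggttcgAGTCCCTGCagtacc
The shared runs are 8 and 9 bases long. In the long Malat1 transcript the annotated exon runs on past this stretch to base 6983, whereas the long Neat1 transcript ends at the A-rich tract. The library protocol in the labels does not state whether poly(A) RNA was selected, and how selection touched these RNAs was not tested.

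In the RefSeq promoter table (GRCm38.p6), 1 of the 2 members matched, Malat1. Its window, from base -250 to base 50 relative to the start, is the minus strand of chr19:5802623-5802922, and it is shown because Malat1 is the member whose level differed most. Capitals mark matches, on either strand, to the MEF2 consensus, to the cAMP response core TGACG and to the E-box CANNTG, the motif bound by Myod1 and Myog.
Malat1 promoter: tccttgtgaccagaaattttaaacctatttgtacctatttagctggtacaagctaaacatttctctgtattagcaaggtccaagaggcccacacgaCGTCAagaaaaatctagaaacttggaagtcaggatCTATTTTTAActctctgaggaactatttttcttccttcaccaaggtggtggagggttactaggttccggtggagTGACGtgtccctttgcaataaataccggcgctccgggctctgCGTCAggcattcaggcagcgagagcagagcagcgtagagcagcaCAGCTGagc
The window holds 1 MEF2 consensus, starting 119 bases before the start, 3 copies of TGACG (or CGTCA on this strand) and 1 E-box, CAGCTG, at base 42 of the transcript. These motifs were chosen with the sequence in view. A MEF2 match occurs in 3.19% of the 32851 promoter windows, TGACG in 20.8%, CANNTG in 72.3% and CAGCTG, which is also counted within CANNTG, in 16.3%. The window held no match to the CCAAT box, to the GC box motif GGGCGG, to the TATA box motif TATAAA or to the CArG box consensus, which occur in 37.4%, 35.7%, 13.6% and 1.63% of windows. A match is a string of letters and was not tested as a binding site.

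Malat1 was about 3 times as abundant in KO as in WT cells. Its level, in CPM (counts scaled to a common library size by TMM), was 293, 287 and 302 in the WT libraries, in replicate order, and 962, 1028 and 815 in the KO libraries. Every KO library lay above every WT library, and the lowest KO value was that of replicate 3. The means were 294 ± 7.54 in WT and 935 ± 108.9 in KO (SD, n = 3 each). This is a log2 difference of 1.67 (SE 0.08), or 3.18-fold. Behind these are raw counts of 5455 to 8098 in WT and 15468 to 25810 in KO. Of all tested genes, 542 (3.49%) had a larger log2 fold change upward. By CPM Malat1 stood at ranks 537 to 567 of the tested genes in WT libraries and at ranks 76 to 111 in KO libraries.

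Neat1 differed little between the genotypes. It measured 180.4, 181.3 and 197 CPM in the 3 WT libraries and 160.5, 173.7 and 165.4 CPM in the 3 KO libraries. The highest KO library was below the lowest WT library by this scaling. The means were 186 ± 9.36 and 166.5 ± 6.67 (SD, n = 3 each). The log2 difference was -0.16 (SE 0.05) and became 0.01 when library size alone was used for scaling. As a share of raw counts, Neat1 took 0.0170%, 0.0171% and 0.0186% in WT and 0.0170%, 0.0184% and 0.0175% in KO, and there the groups overlap. So the direction of this small difference rests on the scaling, which moved the median log2 fold change of all genes from 0.02 to 0.19. For Malat1 the same change of scaling moved the value from 1.67 to 1.84. In CPM, 69.4% of all tested genes had groups that did not overlap, and 66.7% were called at an adjusted p under 0.05, so separation as such is common in these libraries.

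**Figure D1:**
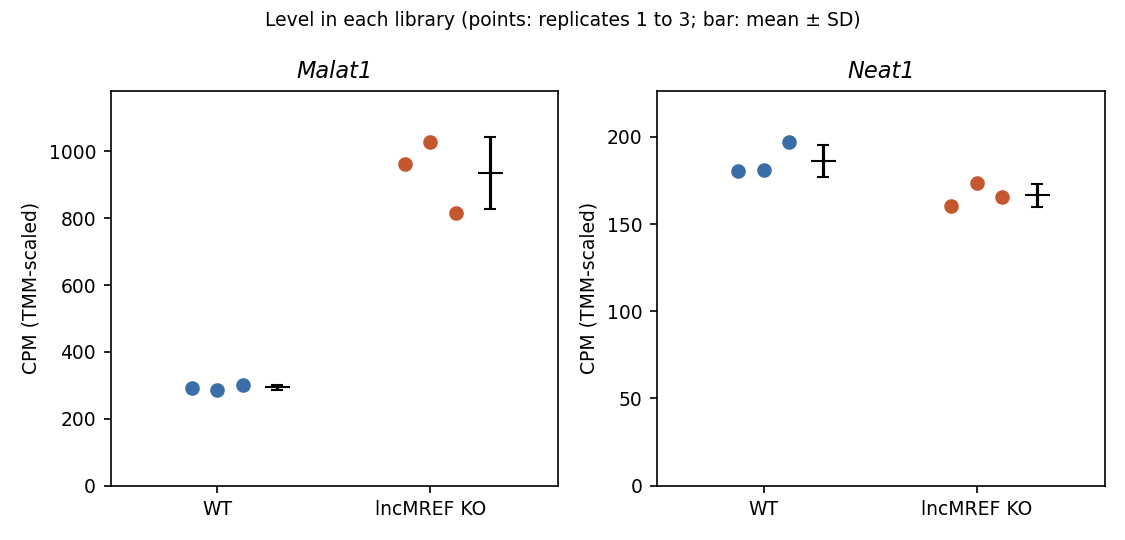
CPM of Malat1 (left) and Neat1 (right) in each library, with WT in blue and KO in orange, points for replicates 1 to 3 and a bar for the mean with its SD; both axes start at 0. Malat1 lies at 287 to 302 in WT and 815 to 1028 in KO, whereas Neat1 stays between 160.5 and 197.

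The ratio of the 2 RNAs within a library needs no scaling between libraries. Malat1 had 1.63, 1.58 and 1.53 times the counts of Neat1 in the WT libraries and 6.0, 5.92 and 4.93 times in the KO libraries. All KO ratios were above all WT ratios. The log2 ratio of Neat1 to Malat1 was -0.66 ± 0.04 in WT and -2.48 ± 0.16 in KO (SD, n = 3 each), lower by 1.82 in KO. Per kilobase of exon the gap between the genes is wider, because Neat1 is much the longer gene: Malat1 measured 42.1 ± 1.08 CPM per kb in WT and 133.9 ± 15.6 in KO, and Neat1 8.97 ± 0.45 and 8.02 ± 0.32. If much of the Neat1 signal comes from its short form, dividing by the long exon lowers that value, and the share of the short form was not measured.

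Malat1 varied more among KO libraries than most genes of its level. Its coefficient of variation was 2.56% in WT, where the median of the 402 genes within 2-fold of its mean CPM, itself included, was 2.53%, and 11.6% in KO, where the median was 3.43% and 2.49% of those genes varied more. For Neat1 the values were 5.02% in WT and 4.01% in KO. Leaving out KO replicate 3 gave a Malat1 log2 fold change of 1.75, and leaving out any one library gave values from 1.6 to 1.75. The imprinted RNA Meg3 also had its lowest KO value in replicate 3, at 221, 228 and 186 CPM. So did 8 of the other 16 long noncoding RNAs looked at by library, a comparison made after the Malat1 values were seen. The rest of the 16, H19, Tug1 and Pvt1 among them, had their lowest value in another KO library. The share over all tested genes was not counted, so no shared effect of replicate 3 is read from this.

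Against other long noncoding RNAs, Malat1 was the second most abundant per kilobase in both genotypes. The list held 20 named RNAs besides the members, of which 17 were in the matrix and 16 tested. H19, the imprinted RNA of growing muscle, was far above all others, at 4392 ± 65.1 CPM per kb in WT and 3592 ± 69.2 in KO. In WT, Malat1 was followed by Mir22hg (23.0 ± 0.652), Gas5 (12.4 ± 0.931), Tug1 (10.9 ± 0.711) and Neat1 (8.97 ± 0.45). Neat1 and the next below it, Rian (8.83 ± 0.178), did not differ beyond their spread, and Tug1 stood above both by more than it. In KO, Gas5 (28.5 ± 1.63) stood next below Malat1. The neighbours of Neat1 (8.02 ± 0.32) there were Tug1 (8.43 ± 0.577) above and Dnm3os (7.59 ± 0.752) below, and neither differed from it beyond the spread.

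Most RNAs of that list were higher in KO, as Malat1 was. By edgeR's quasi-likelihood test with Benjamini-Hochberg adjustment over all tested genes, 13 of 16 rose and 3 fell, against 33.7% higher and 33.0% lower among all tested genes. Their median log2 fold change was 0.85, beside 0.02 for all genes, and none of the 16 exceeded Malat1. The 4 with the smallest adjusted p were Gas5, a host of snoRNAs (1.2, SE 0.06, adjusted p 1.88e-19), Dnm3os, a host of microRNAs (1.23, SE 0.07, 9.16e-18), the snoRNA host Snhg12 (1.55, SE 0.09, 2.83e-17) and Rian of the Dlk1-Dio3 locus (0.54, SE 0.04, 1.39e-13). Gas5 and Snhg12 share 17.8% and 19.6% of their exonic bases with other genes. The 3 that fell, named after their values were seen, were H19 (-0.29), Tug1 (-0.37) and Mir22hg (-0.34). Over all 327 other tested genes of the lincRNA class, 85 rose and 91 fell, with a median of 0.09, and 16 had a larger log2 fold change than Malat1. Without the members, the class took 1.2% to 1.23% of counts in WT and 1.19% to 1.21% in KO. H19, which fell, made up 83.2% to 83.5% of that in WT and 77.2% to 79.1% in KO, and without H19 the rest took 0.202% to 0.204% of counts in WT and 0.253% to 0.274% in KO. Malat1 itself made up 2.13% to 2.23% of lincRNA counts in WT and 6.59% to 8.15% in KO, and Neat1 1.30% to 1.45% in all 6 libraries.

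**Figure D2:**
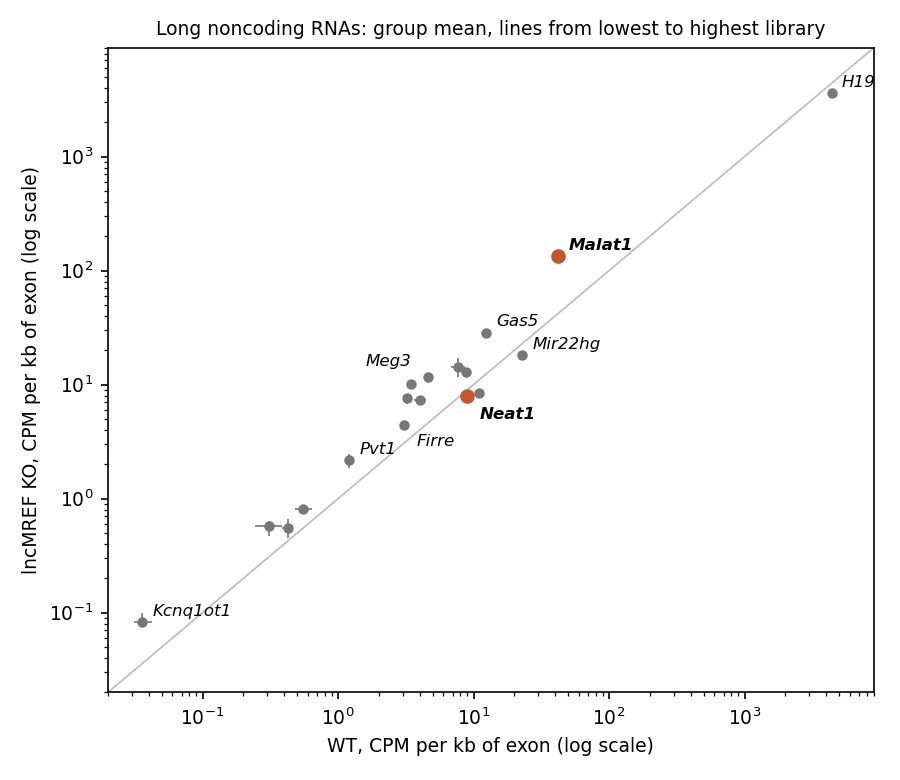
Mean CPM per kb of exon in WT (x) and KO (y), both on log axes, for Malat1, Neat1 and the 16 other long noncoding RNAs tested; lines run from the lowest to the highest library and the grey diagonal marks equal levels. Malat1 sits above the diagonal, at 42.1 and 133.9, and Neat1 just under it, at 8.97 and 8.02.

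Genes around Malat1 and Neat1 differed between the genotypes in both directions. Of 73 matrix genes within 0.5 Mb of either member, 58 were tested; 20 rose, 13 fell and 25 were not called (56.9% called, against 66.7% of all tested genes), and their median log2 fold change was 0.03. Cdca5 (1.73), a cell division gene named after its value was seen, was the 1 gene in the window with a higher value than Malat1. Within 0.1 Mb, 12 genes were tested, from -1.22 to 0.52 on the log2 scale, and 3 rose and 5 fell. On the Neat1 side the nearest tested gene was Frmd8, a partner of the iRhom proteins 4.22 kb from the Neat1 start, which rose from 86.4 ± 3.8 to 124.3 ± 7.35 CPM (0.52, SE 0.05, adjusted p 2.33e-11).

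Of the other genes within 0.1 Mb, the kinase Map3k11 (0.23, adjusted p 0.00144) and the DNA polymerase alpha subunit Pola2 (0.38, 1.25e-04) rose. Ehbp1l1, an actin and membrane trafficking gene (-1.22, 3.42e-24), the Cdc42 effector Cdc42ep2 (-0.89, 1.33e-12), Sssca1 (-0.49, 0.0115), the BAF complex subunit Dpf2 (-0.15, 0.00873) and the TGF-beta binding protein Ltbp3 (-0.14, 0.00494) fell. The last 3 calls were lost when library size alone was used for scaling (-0.32, 0.02 and 0.03), and those of Sssca1 and Dpf2 also without KO replicate 2. Sssca1 shares 74.4% of its exonic bases with other genes. The mitochondrial carrier Slc25a45 (-0.18), Tigd3 (0.13) and Gm42067 (-0.52) were not called, the last 2 at under 1 CPM. Further out in the window, the actin-severing protein Cfl1 rose (0.52, adjusted p 4.97e-13) and the protease Capn1 fell (-0.65, 1.82e-14).

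**Figure D3:**
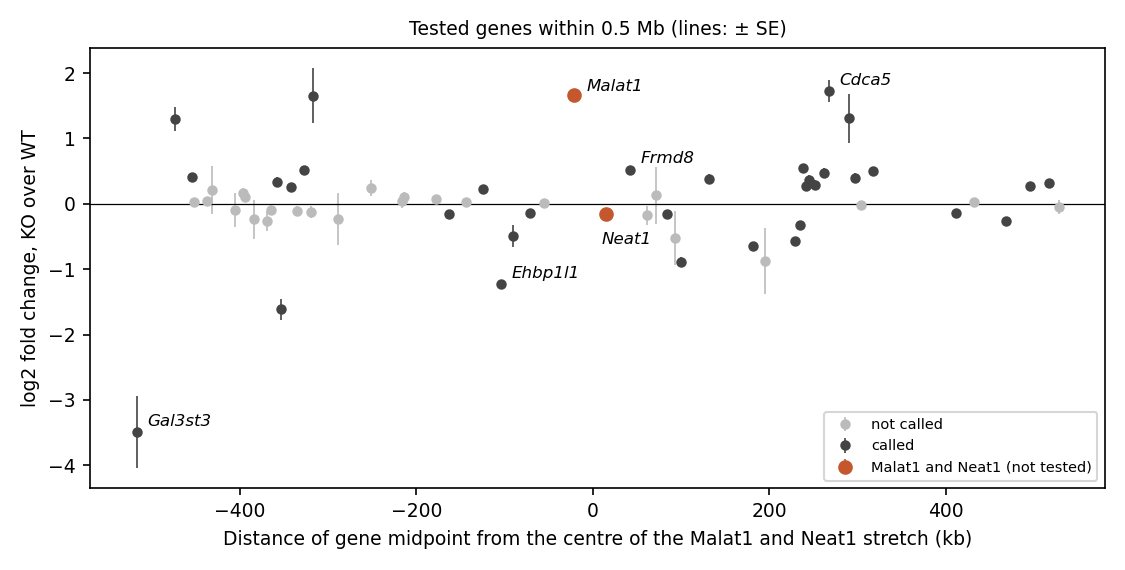
Log2 fold change, KO over WT, with its SE, of Malat1, Neat1 (orange) and the 58 tested genes within 0.5 Mb, against the distance in kb of each gene's midpoint from the centre of the stretch that holds both members; dark points were called and light points were not. Malat1, at 1.67, stands apart from the genes beside it, and Frmd8, at 0.52, is the highest of those within 0.1 Mb.

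Genes for the proteins of paraspeckles, the bodies that Neat1 scaffolds, were mostly slightly higher in KO by the matrix, but not by the per-library tables. Of 30 tested in the matrix, 19 rose, 3 fell and 8 were not called; 73.3% were called, near the 66.7% of all genes (33.7% higher and 33.0% lower). They had a median log2 fold change of 0.23, with no change beyond 2-fold. Of the 16 tested in the per-library tables, 6 were called higher and 5 lower, and the median was -0.09. Among all 9871 genes tested in those tables, 2691 were called higher and 2745 lower. Nono, a core paraspeckle protein, measured 262, 253 and 256 CPM in WT and 378, 389 and 371 in KO (0.56, SE 0.04, adjusted p 2.27e-14). Its groups did not overlap, as in 69.4% of all tested genes. Its partner Sfpq rose from 158.7 ± 1.82 to 207.7 ± 7.02 (0.39, SE 0.04, 6.80e-10), and Rbm14, needed to build the bodies, from 24.3 ± 2.25 to 34.6 ± 4.02 (0.51, SE 0.08, 5.44e-06). The third Nono family member, Pspc1, was not called (0.12, SE 0.08, adjusted p 0.18). The RNA-binding proteins Rbmx (0.91, adjusted p 2.61e-13) and Hnrnpa1 (0.64, 8.21e-16) also rose. Other genes overlap 21% of the exonic bases of Rbm14 and 17.3% of Matr3, and Hnrnpa1 and Rbmx have near-identical copies that can share reads. Matr3 (-0.61), Fam98a (-0.39) and Cpsf7 (-0.15), named after their values were seen, were the 3 that fell.

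Of the factors that set which Neat1 form is made, 1 of the 3 named here was called, beside 66.7% of all tested genes. Nudt21 and Cpsf6 form the cleavage factor that favours the short poly(A) form, and Hnrnpk opposes it. Nudt21 rose from 42.1 ± 1.16 to 55.0 ± 1.89 CPM (0.38, SE 0.06, adjusted p 4.94e-07). Cpsf6 was at 78.5 ± 2.77 and 83.0 ± 4.59 (0.08, SE 0.05, 0.177) and Hnrnpk at 508 ± 4.51 and 492 ± 6.26 (-0.05, SE 0.04, 0.321), neither called. With library size alone, Pspc1 (0.29), Cpsf6 (0.25) and Hnrnpk (0.13, of the opposite sign) were called higher; Pspc1 was also called without KO replicate 3 and Cpsf6 without KO replicate 2.

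Genes for nuclear speckle proteins, the surroundings of Malat1 RNA, were also mostly higher by small amounts in the matrix. Of 32 tested, 25 rose, 2 fell and 5 were not called (84.4% called, beside 66.7% of all genes, 33.7% higher and 33.0% lower), with a median of 0.27. Of the 16 tested in the per-library tables, 4 were called higher and 3 lower, and their median was 0.17. Those tables called 2691 higher and 2745 lower among all 9871 genes tested in them. Srrm2, which with Son forms the core of the speckle, rose from 276 ± 11.2 to 395 ± 22.5 CPM (0.52, SE 0.04, adjusted p 2.20e-12), and Son from 304 ± 9.69 to 359 ± 7.21 (0.24, SE 0.04, 3.75e-06). The splicing coactivator Srrm1 (0.49, adjusted p 7.45e-11) and the RNA helicase Ddx39b (0.48, 2.09e-11) rose as well. Dyrk1a, a kinase that phosphorylates splicing factors and disperses speckles when in excess, fell from 113 ± 2.35 to 62.6 ± 1.94 (-0.85, SE 0.05, adjusted p 3.34e-17). The other member that fell was Bclaf1 (-0.14), named after its value was seen. None of these genes changed by over 2-fold, and the largest rise of the list, 0.52, is far under the 1.67 of Malat1.

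Genes whose products cut, trim or bind the Malat1 3′ end differed in both directions. Of 14 tested, 5 rose, 3 fell and 6 were not called (57.1% called, below the 66.7% of all genes), with a median of 0.11. Elac2, the RNase Z that trims the tRNA-like RNA released from Malat1, measured 39.5, 36.2 and 40.4 CPM in WT and 27.3, 26.2 and 26.1 in KO (-0.55, SE 0.07, adjusted p 5.16e-09). Its KO libraries all lay below its WT libraries, and 69.4% of all tested genes had groups that did not overlap. Trnt1, which adds the CCA end to that small RNA, fell too (-0.36, SE 0.06, 5.52e-06). Of 11 RNase P subunits, 5 rose, 1 fell and 5 were not called. Pop4 rose (0.48, adjusted p 2.22e-07), and so did Pop1 (0.25), Rpp21 (0.33), Rpp40 (0.57) and Rpp25 (1.76, from 0.586 to 2.05 CPM), all but Pop4 picked here with their values in view. Rpp14 fell (-0.27, 6.91e-04; -0.10 and not called with library size alone). Mettl16, which binds the triple helix, was at 31.7 ± 0.793 and 33.7 ± 0.298 CPM and not called (0.09, SE 0.06, 0.207), though it was called with library size alone (0.26).

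Of 13 transcription factors reported to act on either gene, 2 rose, 8 fell and 3 were not called (76.9% called, beside 66.7% of all genes, 33.7% higher and 33.0% lower), with a median of -0.27; with library size alone 5 rose and 7 fell. Trp53, the p53 factor that activates Neat1, rose from 86.2 ± 2.28 to 116 ± 8.22 CPM (0.43, SE 0.05, adjusted p 2.85e-09). Hif1a (-0.40, 4.13e-10), the lysosomal regulator Tfeb (-0.79, 6.03e-09) and the serum response factor Srf (-0.43, 1.56e-08) fell. The heat shock factor Hsf1 fell slightly (-0.18, SE 0.06, 0.0057), a call lost with library size alone (-0.01). Brca1, a repair gene, rose from 3.57 ± 0.388 to 14.9 ± 0.822 CPM (2.05, SE 0.12, 5.10e-17). Rela, which lies 148 kb from Malat1, was not called (0.07, adjusted p 0.184).

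Of 13 reported partners of Malat1 or Neat1 in muscle or on chromatin, 7 rose, 4 fell and 2 were not called (84.6% called, beside 66.7% of all genes, 33.7% higher and 33.0% lower), with a median of 0.16. Malat1 has been placed in a repressive complex with the histone methyltransferase Suv39h1, the HP1 protein Cbx1 and the deacetylase Hdac1 at Myod1 sites. Suv39h1 rose from 8.40 ± 0.647 to 17.4 ± 0.369 CPM (1.06, SE 0.10, adjusted p 7.58e-12) and Hdac1 from 88.4 ± 2.04 to 108 ± 1.79 (0.29, SE 0.05, 1.28e-06), whereas Cbx1 was at 56.9 ± 2.91 and 57 ± 2.64 and not called (0.00, SE 0.06, 0.973; 0.17 and called with library size alone). Suv39h1 shares 14.6% of its exonic bases with another gene. Myod1 measured 311, 304 and 291 CPM in WT libraries and 97.8, 91.3 and 91.4 in KO libraries, in the direction opposite to Malat1. The groups did not overlap, as in 69.4% of all tested genes. Ezh2, the Polycomb methyltransferase tied to Neat1, rose (0.94, SE 0.08, 3.41e-13), and the cell cycle inhibitor Cdkn1a fell from 1940.2 ± 33.5 to 826 ± 29.9. The cell cycle factor Mybl2, whose mRNA has been linked with Malat1, rose from 3.41 ± 0.265 to 11.3 ± 0.949 (1.73, SE 0.13, 4.59e-14).

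**Figure D4:**
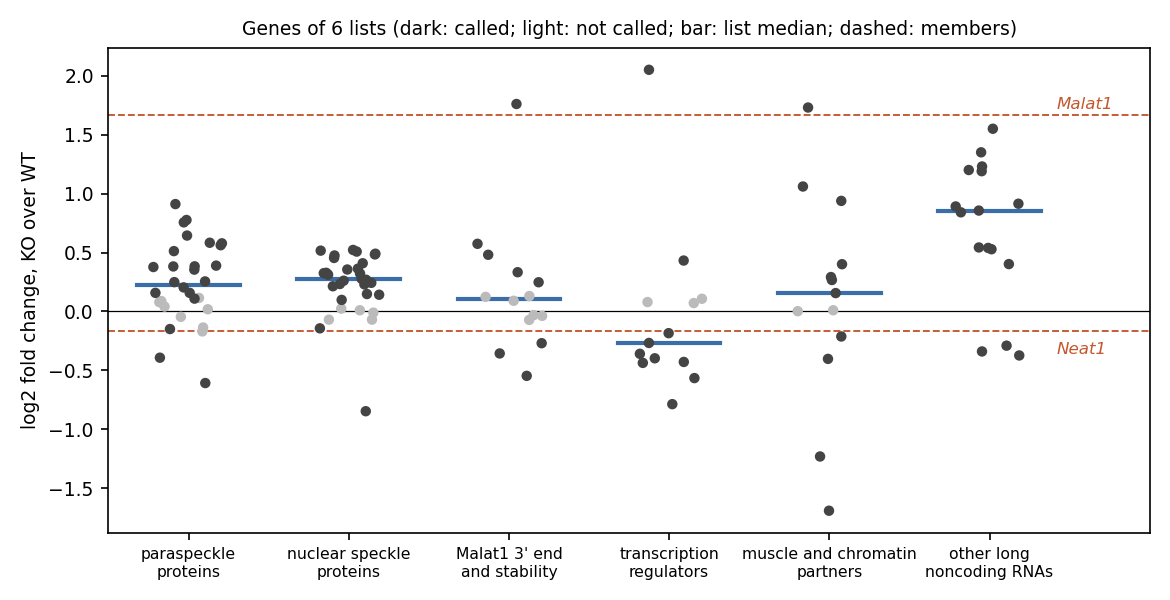
Log2 fold change, KO over WT, of the tested genes in 6 lists, 1 point per gene, dark where called, with a blue bar at each list's median and dashed orange lines at Malat1 (1.67) and Neat1 (-0.16). Paraspeckle and speckle genes gather at small positive values (medians 0.23 and 0.27), and no other long noncoding RNA of the list reaches the Malat1 line.

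The 5 genes most like Malat1 over the 6 libraries, by the root mean square difference of log2 CPM centred on each gene's mean among 9696 genes of at least 10 CPM, began with Xist, the RNA of the inactive X chromosome, at 0.07. Xist measured 152, 154 and 155 CPM in WT and 478, 476 and 417 in KO. It was followed by Cyp2j9, a cytochrome (0.07), the stress factor Ddit3 (0.08), the neurotrophic factor Gdnf (0.09) and the spindle-linked Hmmr (0.10). The log2 fold changes of those after Xist ran from 1.59 to 1.70. Cyp2j9 (5.02 CPM in WT, 16.2 in KO) and Hmmr (8.68 in WT, 28.2 in KO) reached a mean of 10 CPM only through their KO level. The genes most like Neat1 were the muscle kinase Mapk12 (0.02), the actin nucleator Actr2 (0.02), Mplkip (0.02), Utp3 (0.03) and Nit1 (0.03), all between -0.19 and -0.14 on the log2 scale. The members differed from each other by 0.92 on this measure, and 9376 genes were closer to Neat1 than Malat1 was. The 6 libraries fall into 2 genotypes, so this likeness is mostly a like difference between them and a description only.

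In bulk RNA a change in the mix of cells and a change of RNA per cell cannot be told apart, and these libraries differ in more than the 2 genes. The marker counts that follow stand beside 33.7% called higher and 33.0% called lower among all tested genes. Of 10 myogenic markers, 8 were lower and 1 higher in KO; Myog and Des were present in every library, and the sum over the list was 17984 to 18659 CPM in WT and 4036 to 4360 in KO. All 10 endothelial markers were lower (summed 336.5 to 342.9 and 83.2 to 88.6 CPM), all 9 tested macrophage and leukocyte markers were higher (105.4 to 116.3 and 343.9 to 356.8), and of 8 Schwann cell markers 6 were higher and 1 lower (482.5 to 487.7 and 940.2 to 954.1). Of 7 fibroblast markers 4 were higher and 2 lower (10218 to 10358 and 11634 to 12373). No tested marker of these cells was at 0 in either group's mean, and the leukocyte gene Ptprc stood at 0.789 and 2.89 CPM. The listed markers Aif1 and Pi16 were in the matrix but did not pass the filter on low counts. Mitochondrially encoded genes made up 3.97% to 4.18% of WT counts and 2.07% to 2.30% of KO counts. Beside the Xist values above, 4 genes of the Y chromosome were present in all 6 libraries. Ddx3y (57 to 66.1 CPM in WT and 33.9 to 37.5 in KO), Eif2s3y (26.3 to 28.8 and 18.3 to 23.1) and Uty (20.0 to 22.2 and 12.6 to 16.4) were lower in KO libraries, and Kdm5d was higher (14.7 to 14.9 and 16 to 17.1). The part of any of these in the Malat1 values, or in the gene groups above, was not tested.

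The authors also deposited a count table per library, and it gives other values for both genes. There the rows labelled Malat1 held 711 to 964 counts in WT and 939 to 1216 in KO, and those labelled Neat1 221 to 342 and 288 to 349. The matrix held 7.67 to 8.40 times as many Malat1 counts in WT and 14.8 to 22.6 times as many in KO. From these tables the log2 fold change was 0.43 (SE 0.07) for Malat1 and 0.17 (SE 0.10) for Neat1. The matrix gave 1.67 and -0.16. In the per-library tables Malat1 stood at 138, 157 and 174 CPM in KO, in replicate order. Replicate 3 was thus the highest KO library there and the lowest in the matrix. Whether the rows of the same label count the same stretches of the genome was not tested. The per-library values are therefore not taken as a second measurement of either gene. Both identifiers carry version 4 in those tables and version 3 in GENCODE M21. Of the 9941 genes whose matrix mean reached 200 counts, 5.62% had a per-library mean between 0.8 and 1.2 times as large, so neither member is alone in this. In all, 29 genes named above or among the cell type markers were called in the matrix and measured in both sources. Of these, 15 had the opposite sign in the per-library tables, Frmd8, Sfpq, Rbm14, Ezh2 and Brca1 among them. The cell type markers among the 15 were Mymk, Erbb3 and Laptm5. A further 6, Cd68, Ckm, Ehbp1l1, Hif1a, Son and Suv39h1, kept their sign but were not called there, and 8 calls held. Why the tables differ was not tested, and the values above are those of the matrix.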

How the data were processed

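Gene expression was measured by RNA-seq in 6 libraries of satellite cells, 3 WT and 3 KO, grouped by the sample titles. The counts the authors deposited are whole numbers by Ensembl gene with no normalization, in a matrix of the whole series and again in a table per library. The submitters' processing notes list mm10, featureCounts 2.0.1 and HISAT2 2.2.1. Which annotation and strand setting the counting used was not stated in these sources, and reads of overlapping genes may be shared. Matrix totals ran from 17919826 to 28430678 counts per library. Of 21666 matrix genes, 21632 matched GENCODE M21, which gave symbols, coordinates and exonic lengths.

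The matrix was the source of the main values. In edgeR 4.0.16 under R 4.3.3, filterByExpr set the tested genes (at least 10 counts, total at least 15), TMM the scaling, and a quasi-likelihood F-test on genotype alone the comparison, with Benjamini-Hochberg adjustment over all 15518 genes and calls at an adjusted p under 0.05. SE is the log2 fold change over the square root of F. No p is given for Malat1 or Neat1. Mean chi-square per gene between replicates was 3.18 to 5.11, above the 1 expected from sampling alone. The script was tested on simulated data with far fewer changed genes than were called here, so that test does not bear on the scaling.

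The members and lists were chosen with earlier results of these data known. Named genes are the members, the 4 of smallest adjusted p in each list, 20 preset genes, all genes tested within 0.1 Mb and the 5 of most similar pattern to each member. Some genes that this rule names are not reported here. Alternatives were median-of-ratios factors, library size only, library sizes without mitochondrial genes, no filter, DESeq2 1.42.0, a replicate block, each library left out, and the per-library tables. The targeted lncRNA has no identifier in the sources used here, so the knockout was not checked.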

Additional observations from a re-analysis of the deposited data

How the results depend on the processing

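Malat1 stayed higher in KO under every alternative run on the matrix. It was at 1.6 to 1.75 on the log2 scale with any 1 library left out and at 1.84 with library size only. Neat1 ran from -0.196 to -0.132 with any 1 library left out and turned to 0.00883 with library size only. In the per-library tables the rows labelled Malat1 and Neat1 gave 0.426 and 0.169. These values are not taken as a second measurement of either gene. The log2 ratio of Neat1 to Malat1 differed by -1.82 between genotypes, -1.91 to -1.77 with any 1 library left out and -0.243 with the per-library tables. Those tables also called 5436 of 9871 tested genes, in place of 10353 of 15518 in the matrix. Paraspeckle genes had 11 calls of 16 tested (22 of 30 in the matrix) and speckle genes 7 of 16 (27 of 32). Genes of the Malat1 3′ end had 3 of 4 (8 of 14). Regulators had 6 of 9 (10 of 13) and partners 1 of 3 (11 of 13). The other long noncoding RNAs had 2 of 3 (16 of 16). Fewer genes were tested in each, so the drop in calls is in part a drop in genes tested. By the per-library counts, 6 paraspeckle genes were higher and 5 lower (19 and 3 in the matrix). Their median log2 fold change turned from 0.23 to -0.09. Speckle genes were higher in 4 cases and lower in 3 by those counts (25 and 2 in the matrix). Of 29 named genes called in the matrix and measured there, 15 had the opposite sign, 6 lost their call and 8 held; the cause was not tested. With library size only, 66.1% of all calls were higher in place of 50.5%, and 30 of 38 called genes around the locus were higher in place of 20 of 33. The labels do not say whether replicate numbers pair the libraries. Deviations of same-numbered libraries correlated across genes at -0.025 to -0.000914, which cannot show whether those libraries were collected or prepared together. A replicate block gave 1.66 for Malat1, -0.161 for Neat1 and 10209 called genes, and no named call was lost. Depth did not limit the members, which had at least 3139 counts in each library.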
